A study of Mus musculus with 18 samples.

Results

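Of the 40800 genes counted in the lens libraries, 9 genes linked to fibrosis and to the epithelial-mesenchymal transition (EMT) were followed here: *Tgfb2*, *Tgfbi*, *Fn1*, *Col1a1*, *Col1a2*, *Col3a1*, *Aebp1*, *Acta2* and *Tagln*. They were taken by symbol from a fixed list, which was chosen with earlier results of these data known. All 9 passed the filter on low counts, as did 13938 genes in all. *Aebp1* was chosen by its measured level, which was lower in *Cryaa*-R49C than in WT lenses, so its values in comparisons that use the *Cryaa* libraries are given as a description, with no test. RNA-seq was carried out on whole mouse lenses in 18 libraries, with several lenses pooled in each, and 3 libraries per group. One line of mice on the C57BL/6J strain held a knock-in point mutation, R49C, in the αA-crystallin gene (*Cryaa*). Its mice were WT, heterozygous (het) or homozygous (homo) for the mutation, and lenses were taken at 2 days of age. A second line carried R120G in the αB-crystallin gene (*Cryab*), and its WT, het and homo lenses were taken at 14 days of age. Both mutations are in the germline, so that every cell of a het or homo mouse carried the mutation of its line. WT mice carried neither. Because line and age changed together, a difference between the lines and a difference between the ages cannot be told apart.

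When lens epithelial cells undergo EMT, as they do after cataract surgery or in anterior subcapsular cataract, they lose their epithelial form and become myofibroblast-like cells. TGF-β, of which *Tgfb2* encodes the form best known in the eye, is the classical inducer. The cells then make contractile proteins, such as the smooth muscle actin encoded by *Acta2* and the actin-binding protein transgelin encoded by *Tagln*. They also secrete a fibrous matrix of fibronectin (*Fn1*), the TGF-β-induced protein (*Tgfbi*), and type I and type III collagen (*Col1a1*, *Col1a2* and *Col3a1*). *Aebp1* encodes a collagen-binding matrix protein, also known as ACLP, which is found in fibrotic tissue. The healthy lens is enclosed in a capsule of basement membrane and holds no fibroblasts. During fetal and early postnatal life, however, it is covered by a transient network of vessels that later regresses, and a dissected lens can carry these vessels with it.

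The stretches of DNA just before the annotated gene start are shown for *Acta2*, which was higher in WT lenses of the older line, and for *Aebp1*, the gene chosen by its level. RefSeq promoters (build GRCm38.p6) were held for 6 of the 9 genes, namely *Tgfb2*, *Tgfbi*, *Col1a2*, *Col3a1*, *Aebp1* and *Acta2*. The 250 bases before the start were searched for the CArG box, the binding site of serum response factor, which is well known for controlling smooth muscle genes. A CArG box with 1 core base other than A or T was allowed, and *Acta2* held 2 such boxes, beginning 84 and 34 bases before its RefSeq start. The GENCODE annotation places the *Acta2* start further upstream, so that both boxes lie in its first exon there, in the untranslated part. Each is printed from the gene's own strand (the minus strand) with 10 bases on either side, and the box in capitals.
*Acta2*, chr19:34255438-34255467: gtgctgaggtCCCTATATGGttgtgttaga
*Acta2*, chr19:34255388-34255417: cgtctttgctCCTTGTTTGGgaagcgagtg
*Aebp1*, chr11:5861616-5861865: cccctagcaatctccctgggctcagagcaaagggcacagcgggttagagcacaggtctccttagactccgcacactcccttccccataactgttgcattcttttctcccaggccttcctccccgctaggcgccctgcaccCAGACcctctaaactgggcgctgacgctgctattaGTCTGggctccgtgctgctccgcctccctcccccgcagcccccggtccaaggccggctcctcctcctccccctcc
Of 32841 mouse promoter windows of the same length, 8.59% held a CArG box under this rule, and 1.47% held one with a core of A and T only, which *Acta2* did not. *Col1a2* held 1 CArG box under the looser rule, and the other 4 windows held none. In the *Aebp1* stretch (plus strand) the capitals mark CAGAC on either strand, the short element that SMAD proteins bind. *Aebp1* held 2 of these, but all 6 genes held at least 1 and so did 42.2% of all windows. These letter matches describe the sequence and do not show binding.

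The genes lie on 6 chromosomes (GRCm38, GENCODE positions). *Col3a1* (chr1:45311538-45349706), *Fn1* (chr1:71585520-71653200) and *Tgfb2* (chr1:186622792-186705989) are on chromosome 1. *Aebp1* (chr11:5861947-5872088) and *Col1a1* (chr11:94936224-94953042) are on chromosome 11. The other members are *Col1a2* (chr6:4504814-4541544), *Tagln* (chr9:45929619-45936058), *Tgfbi* (chr13:56609523-56639562) and *Acta2* (chr19:34241090-34255590). On the opposite strand, 108 exonic bases of *Tagln* overlap *Pcsk7* and 1241 overlap the antisense gene Gm48529, and 292 exonic bases of *Fn1* overlap the antisense gene *Apol7d*. *Tgfb2* shares 124 exonic bases with the antisense gene Gm29491, and *Col3a1* shares 141 with the miRNA gene Gm47302 on its own strand. The strand setting of the counting was not given in the sources used here, so reads of these overlaps cannot be assigned to one gene with certainty.

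Library totals ran from 14272174 to 29639719 counts. The tests used edgeR's quasi-likelihood model with TMM scaling, which sets the middle of all genes level between libraries, and the false discovery rate (FDR) was Benjamini-Hochberg adjusted over the 13938 genes with a threshold of 0.05. Levels are counts scaled to a common library total (CPM) after TMM. The single gene Gm42418 took 2.53 to 42.6% of the counts of a library. The scaling mattered between the lines, since the TMM factors were 1.20 to 2.27 in the *Cryaa* libraries and 0.488 to 0.774 in the *Cryab* libraries. When libraries were scaled by their size alone, the middle gene of the comparison of day 14 with day 2 WT lenses moved from a log2 fold change of -0.07 to -1.61, and the calls moved from 1634 higher and 1603 lower to 157 higher and 11439 lower. In *Cryaa*-R49C-homo against WT, the same change of scaling moved the middle gene to 0.41 and the calls from 679 higher and 685 lower to 1884 higher and 254 lower. Lens identity was clear in each group, with summed CPM of 11 fibre genes between 19693 and 313587, and of 5 epithelial genes between 51.7 and 111.8. Of 8 markers of periocular mesenchyme and fibroblasts, only *Foxc1* and *Pdgfra* passed the filter. *Tcf21* had no count in any library, *Dpt* and *Twist2* had none in most, and the 8 genes summed to 4.63 to 11.4 CPM.

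Per length, *Acta2*, *Tgfb2* and *Aebp1* were the most abundant of the 9 genes, and the matrix genes were scarce. In 2-day-old WT lenses, the mean level in CPM per kilobase was 6.89 ± 0.27 (SD, n = 3) for *Tgfb2*, 5.78 ± 1.05 for *Acta2* and 2.56 ± 0.42 for *Aebp1*. These 3 did not overlap with each other or with *Col1a2*, the next in order at 0.506 ± 0.142. Below it the libraries of each gene overlapped with those of its neighbour, from *Col1a1* at 0.459 ± 0.346 through *Fn1*, *Tagln* and *Tgfbi* to *Col3a1* at 0.189 ± 0.133. In 14-day-old WT lenses *Acta2* stood first at 91.7 ± 9.5, followed by *Tgfb2* at 6.89 ± 0.79. In *Cryaa*-R49C-homo lenses *Aebp1* was in place 5 at 0.542 ± 0.259, and its libraries overlapped with those of *Fn1* above it and *Tagln* below it.

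**Figure D1:**
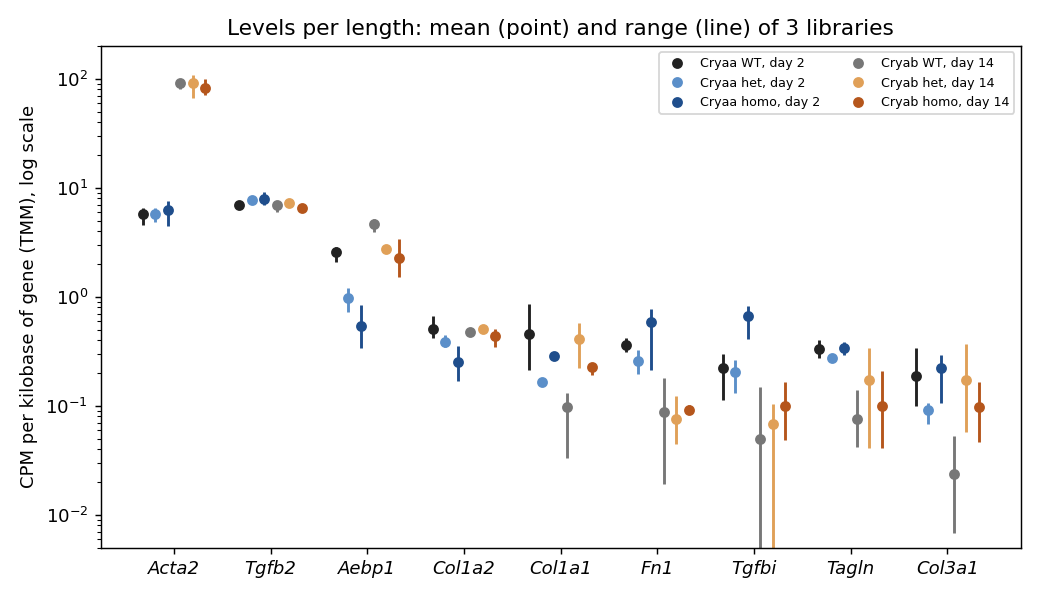
Level of the 9 genes per kilobase of gene in CPM after TMM scaling (log axis), with the mean (points) and range (lines) of 3 libraries for each of the 6 groups; lines that reach the lower edge extend to 0. The means of *Acta2* lie between 5.75 and 6.26 in the 3 groups of day 2 and between 82.2 and 91.7 in those of day 14, and *Tgfb2* stays between 6.03 and 9.13 in each library.

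*Acta2* was the gene that differed most between the WT lenses of the 2 lines. Its level was 11.7, 11.0 and 8.16 CPM in the 3 libraries of 2-day-old WT lenses and 144.1, 174.9 and 171.2 CPM in those of 14-day-old WT lenses. No library of one group came near the other. The log2 fold change was 3.99 ± 0.27 (SE), or 15.9-fold, with an FDR of 1.26e-09 by edgeR's quasi-likelihood test. In whole lenses, more cells of a type and more RNA per cell cannot be told apart. The mutant lenses of each line matched this split, with 7.95 to 13.4 CPM over the 9 *Cryaa* libraries and 117.6 to 193.3 CPM over the 9 *Cryab* libraries. With library size alone the log2 fold change was 2.48, and it passed the threshold in all 14 alternatives tried. *Acta2* belongs to a family of near-identical actins, and how reads shared between copies were counted bears on its level. The other smooth muscle actin, *Actg2*, had 7 counts in all in the WT libraries of day 2 and 1 in those of day 14. The cytoplasmic actin *Actb* had a log2 fold change of 0.46 ± 0.23 (FDR = 0.150). The other cytoplasmic actin, *Actg1*, stood at 0.420 to 0.912 CPM at day 2 and 0.334 to 3.97 CPM at day 14 (1.44 ± 0.64, FDR = 0.110). The skeletal muscle actin *Acta1* stood at 0.169 to 10.4 CPM at day 2 and 0.148 to 0.441 CPM at day 14 (-3.62 ± 1.65, FDR = 0.137).

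*Aebp1* was not tested in this comparison, because the day 2 WT libraries are the ones against which it was chosen as lower in mutants. It had 11.5, 11.3 and 8.44 CPM at day 2 and 20.9, 19.6 and 15.8 CPM at day 14, with no overlap. The log2 fold change was 0.85 ± 0.29. The direction turned with library size alone, where it was -0.66 against a median of -1.61 for all genes.

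*Col1a1*, *Fn1*, *Col3a1* and *Tagln* were lower in the older WT lenses. *Col1a1* had 2.04, 1.38 and 5.61 CPM at day 2 and 0.220, 0.867 and 0.816 CPM at day 14, and fell by 2.16 ± 0.49 on the log2 scale (FDR = 0.00287). Without *Cryaa* WT replicate 3 the log2 fold change was -1.35 (FDR = 0.0496). *Fn1* had 4.90, 3.65 and 4.24 CPM at day 2 and 2.09, 0.734 and 0.223 CPM at day 14, and fell by 2.18 ± 0.55 (FDR = 0.00690). The groups did not overlap for either gene, although the day 14 libraries of *Fn1* spread widely, on counts of 19, 11 and 3. *Col3a1* rested on 29, 29 and 96 counts at day 2 against 1, 1 and 7 at day 14, and its level was 7.87 times higher at day 2 (95% counting interval 4.04 to 17.5, FDR = 0.0151). The *Col3a1* call held in 12 of 14 alternatives and was lost without *Cryaa* WT replicate 3. *Tagln* rested on 12, 13 and 18 counts against 2, 1 and 1, a level 4.94 times higher at day 2 (1.80 to 19.0, FDR = 0.0380). This call was not firm, since it held in 8 of 14 alternatives and was lost with the study's own filter, which keeps every gene with a count (FDR = 0.0589). With that filter the model used no variance of its own for each gene, here and wherever it is named below. The counting intervals cover counting error only.

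*Tgfbi* and 2 other genes did not pass in the WT comparison. *Tgfbi* had 16, 9 and 23 counts at day 2 and 0, 6 and 0 at day 14, where a count of 0 allows up to 3, and its FDR was 0.105. It passed with the study's filter (FDR = 0.0458) and in 4 of 13 alternatives in all. *Tgfb2*, the ligand, had 32.0, 31.6 and 34.0 CPM at day 2 and 35.8, 33.4 and 28.5 CPM at day 14. The overlapping libraries gave a log2 difference of 0.00 with a 95% interval of -0.37 to 0.37. *Col1a2*, the partner chain of *Col1a1* in type I collagen, had 5.28, 5.03 and 8.13 CPM at day 2 and 5.40, 5.87 and 5.86 CPM at day 14, a log2 difference of -0.10 (interval -0.65 to 0.44). With library size alone these log2 differences were -1.57 and -1.73, against -1.61 for the middle of all genes. In all, 5 of the 8 genes tested passed in this comparison, 1 higher and 4 lower, where 23.2% of all genes passed (11.7% higher and 11.5% lower). With the study's filter 5 passed too, with *Tgfbi* in the place of *Tagln* (12.7% of genes). The libraries of the first 5 genes did not overlap between the groups, as was so for 43.2% of all genes. Without *Cryaa* WT replicate 3, in which the collagens were highest, 3 passed (*Acta2*, *Col1a1* and *Fn1*), and 4 or 5 passed without any one of the other WT libraries. With library size alone 8 passed, 1 higher and 7 lower, where 83.2% of all genes passed (1.13% higher and 82.1% lower).

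**Figure D2:**
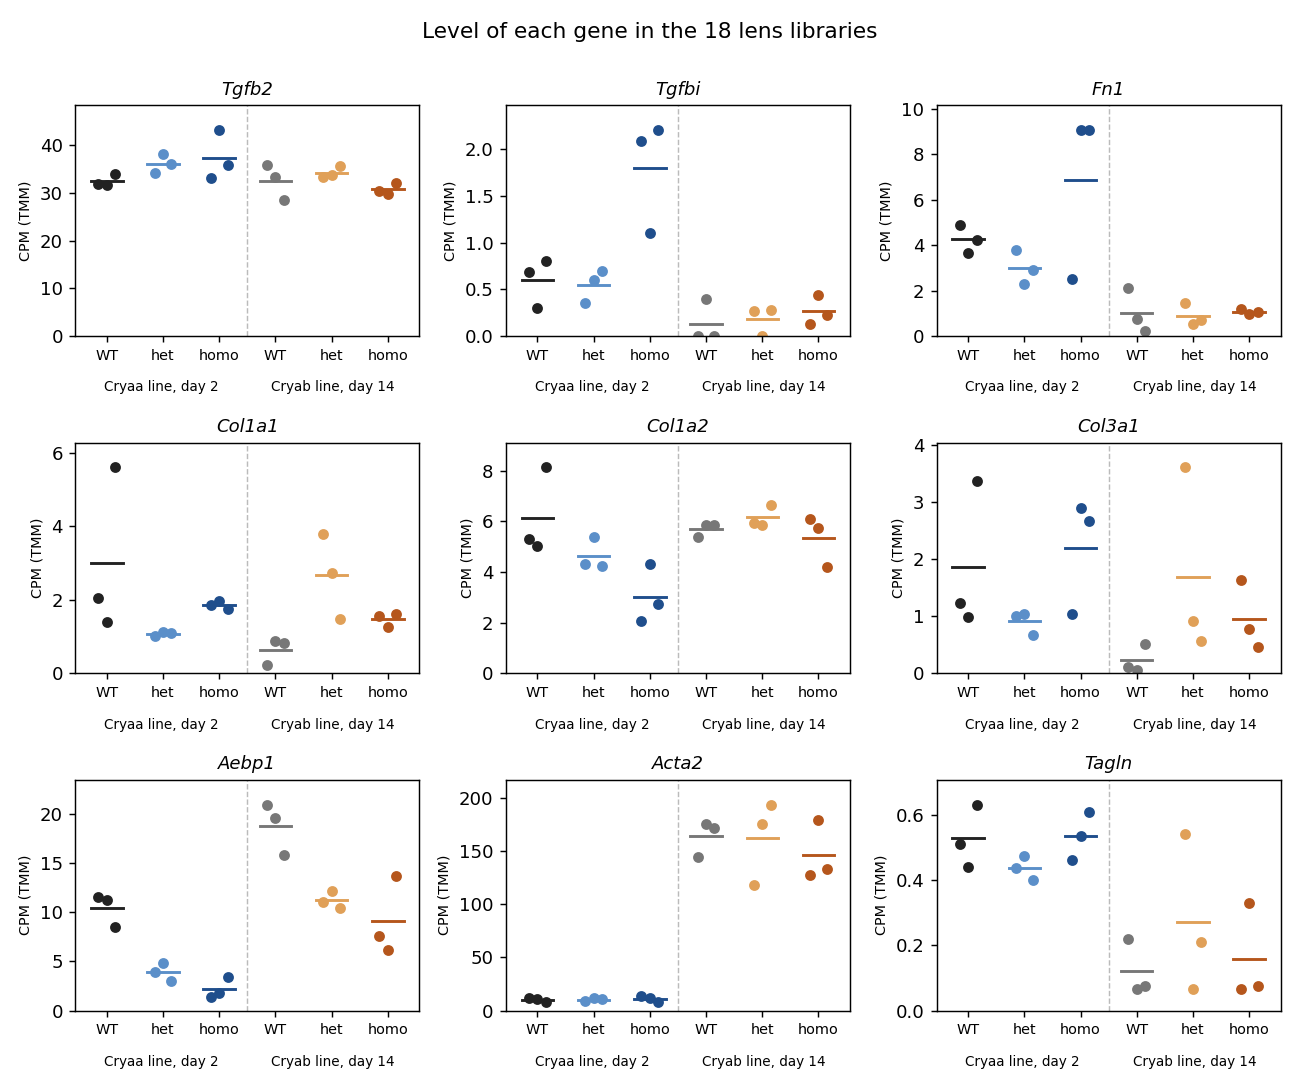
Level of each gene (CPM after TMM scaling, each panel from 0) in the 18 libraries, by genotype and line; points are libraries and bars are means of 3. *Acta2* separates the lines, *Aebp1* lies lower in the mutants of each line than in its WT, and *Fn1* in *Cryaa*-R49C-homo lenses splits into 1 library at 2.51 and 2 at 9.05.

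The other genes of the pathways were compared from lists chosen with earlier results of these data known. Their counts between WT lenses stand beside 11.7% of all genes called higher and 11.5% called lower. Among 11 TGF-β ligands and activators, 9 were tested between the WT lenses, of which 3 were higher and 1 lower at day 14. The ligand *Tgfb1* rose from 0.298 to 1.71 CPM (log2 fold change 2.49 ± 0.75, FDR = 0.0204) and the ligand *Tgfb3* rose from 0.756 to 2.34 CPM (1.63 ± 0.54, FDR = 0.0308). The latent TGF-β binding protein gene *Ltbp1* fell from 11.3 to 5.24 CPM (-1.10 ± 0.26, FDR = 0.00382). Among 16 receptors and SMAD pathway genes, none was higher and 6 were lower. These were led by *Eng*, the endothelial co-receptor endoglin, which fell from 4.49 to 0.353 CPM (-3.59 ± 0.52, FDR = 4.83e-05). The type II receptor gene *Tgfbr2* was at 91 counts against 6, a level 6.98 times higher at day 2 (counting interval 3.08 to 19.5, FDR = 0.00678). The vessel receptor gene *Acvrl1* had a log2 fold change of -2.61 ± 0.60 (FDR = 0.00299). Among 10 genes induced by TGF-β, 2 were lower and none was higher, and both were matrix genes on few counts at day 14. *Tnc* had 61 counts against 2, and *Postn* had 73 against 4. Of the 10, however, 7 had a higher point estimate at day 14. With the study's filter 2 were higher and 2 lower, where 12.7% of all genes passed. With library size alone, 0 were higher and 7 lower among the ligands and activators, and 15 receptor and SMAD genes were lower, against 82.1% of all genes.

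Genes of matrix assembly moved in more than one direction. Of 15 collagen processing enzymes tested, 5 were higher and 1 was lower in the older WT lenses. The prolyl hydroxylase genes *P4ha1* (22.8 to 80.3 CPM, log2 fold change 1.82 ± 0.24) and *P4ha2* (10.4 to 27.8 CPM, 1.42 ± 0.25) rose, with FDR values of 1.48e-05 and 2.84e-04. The cross-linking enzyme gene *Lox* had 41 counts at day 2 and 1 at day 14 (FDR = 0.00827). Of 13 fibril-associated matrix genes, 3 were higher and 6 lower, among them the fibulin gene *Fbln2* (2.21 to 0.330 CPM, -2.85 ± 0.48, FDR = 1.90e-04) and the decorin gene *Dcn* (84 counts to 6, FDR = 0.00880). *Col16a1* was the largest of those that rose (0.109 to 0.683 CPM, 2.51 ± 0.82, FDR = 0.0293). Of 13 EMT regulators and junction genes, 3 were higher and 2 lower. The hyaluronan receptor gene *Cd44* rose from 4.67 to 30.2 CPM (2.69 ± 0.28, FDR = 8.60e-07), *S100a4* rose from 14.8 to 47.9 CPM (1.69 ± 0.32, FDR = 6.73e-04), and the tight junction gene *Cldn1* had 245 counts at day 2 and 5 at day 14 (FDR = 0.0131).

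Of 16 contractile genes beside *Acta2* and *Tagln*, 1 was higher and 3 were lower, a share close to the 23.2% of all genes called. *Mylk*, which encodes myosin light chain kinase, rose from 3.34 to 6.97 CPM (1.06 ± 0.33, FDR = 0.0227). The calponin gene *Cnn2* fell from 4.47 to 0.723 CPM (-2.59 ± 0.33, FDR = 8.70e-06) and *Tagln2* fell from 11.1 to 4.72 CPM (-1.23 ± 0.29, FDR = 0.00412). Of 4 fibronectin receptor genes tested, *Sdc4* rose (1.61 ± 0.26, FDR = 1.50e-04) and *Itga4* fell (-1.87 ± 0.66, FDR = 0.0431). With library size alone the log2 fold changes of *Tgfb3*, *P4ha2* and *Mylk* were 0.00, -0.08 and -0.50, and *Cd44* was the one gene of these lists called higher. The genes called lower were then 11 collagen processing, 11 fibril-associated matrix, 11 EMT, 14 contractile, 5 TGF-β-induced and 3 fibronectin receptor genes, where 82.1% of all genes were lower. The medians of the 8 lists ran from -1.14 for the fibril-associated matrix genes to 0.50 for the TGF-β-induced genes, against -0.07 for all genes tested.

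**Figure D3:**
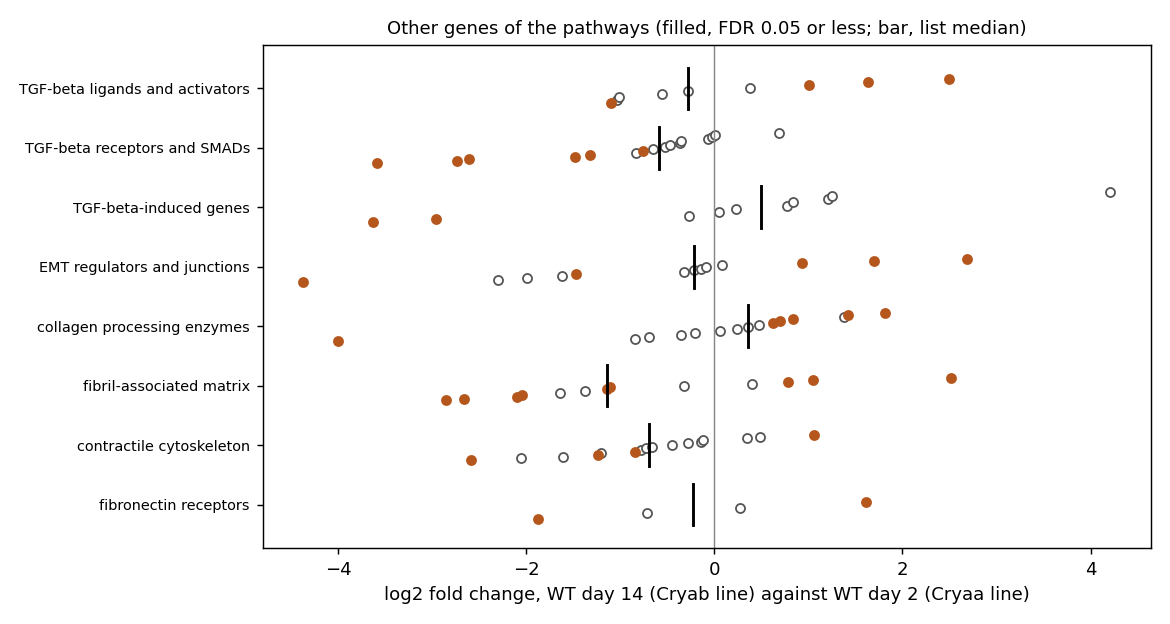
Log2 fold change of the other pathway genes between WT lenses of day 14 (*Cryab* line) and day 2 (*Cryaa* line), one row per list; filled points passed an FDR of 0.05 and black bars are list medians. The 6 receptor and SMAD genes that passed lie below 0, and the collagen processing enzymes that passed lie above 0 except *Lox*.

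Markers of several cell types, those of the vessel network among them, moved with the same comparison. Of 10 vessel endothelium genes, 9 were lower in the older WT lenses, and the 10 genes summed to 35.3 to 53.9 CPM at day 2 and 5.0 to 13.9 CPM at day 14. The 7 pericyte genes summed to 27.0 to 39.2 CPM at day 2 and 7.82 to 14.3 CPM at day 14, and 4 of them were lower. All 10 macrophage genes were lower. Of 10 lens fibre genes tested, 7 were higher, and the 11 listed summed to 61542 to 91042 CPM at day 2 and 274622 to 309350 CPM at day 14. Of 6 photoreceptor genes, 4 were higher, with sums of 6.48 to 29.7 CPM at day 2 and 18.01 to 702.8 CPM at day 14. Of 9 pigment and ciliary epithelium genes 6 were lower, with sums of 21.2 to 38.2 CPM at day 2 and 7.49 to 9.13 CPM at day 14, and of 5 lens epithelium genes 2 were lower. No vessel or pericyte gene was at 0 in every library of either WT group. The photoreceptor sums overlapped between the groups. Of the 2 mesenchyme markers tested, *Foxc1* fell (1.83 to 0.640 CPM, log2 fold change -1.54 ± 0.48, FDR = 0.0236) and *Pdgfra* stood at 6.70 and 7.62 CPM (FDR = 0.695). When scaled by library size alone, 3 lens fibre genes were higher and 2 lower, 2 photoreceptor genes were higher, and 10 vessel, 7 pericyte, 10 macrophage, 7 pigment and ciliary, 5 lens epithelium and 2 mesenchyme genes were lower, against 82.1% of all genes. The part of these cell types in the differences of the 9 genes and of *Eng*, *Tgfbr2* and *Acvrl1* was not tested.

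In each line the *Aebp1* level of every mutant library lay below that of the WT libraries. The *Cryaa* values are a description only, and the *Cryab* difference did not pass the adjusted test. In the *Cryaa* line, where the comparison of mutant with WT lenses chose the gene, the WT libraries had 11.5, 11.3 and 8.44 CPM. The *Cryaa*-R49C-het libraries had 3.95, 4.87 and 2.97 CPM, and the *Cryaa*-R49C-homo libraries had 1.39, 1.82 and 3.38 CPM. All 6 mutant libraries lay below all 3 WT libraries. The log2 fold changes were -1.41 in het and -2.26 in homo. Between homo and het lenses the libraries overlapped, and the log2 difference was -0.85 ± 0.31.

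The *Cryab* line was not used to choose *Aebp1*, and there the difference did not pass the adjusted test. The 14-day-old WT libraries had 20.9, 19.6 and 15.8 CPM, the *Cryab*-R120G-het libraries had 11.0, 12.1 and 10.4 CPM, and the *Cryab*-R120G-homo libraries had 7.53, 6.16 and 13.7 CPM. Again all 6 mutant libraries lay below all 3 WT libraries, as was so for 1.25% of all genes. In het lenses the log2 fold change was -0.74 ± 0.30 (FDR = 1). In homo lenses it was -1.05 ± 0.30 (FDR = 0.460), with the third homo library well above the other two. The FDR in homo lenses was 0.0167 with the study's filter and 0.289 with the replicate number as a block. An exact two-sided permutation test of 3 against 3 libraries cannot go below 0.1, which is the value it gave for both genotypes.

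In *Cryaa*-R49C-homo lenses, *Col1a2* fell and no other member that could be tested passed. *Col1a2* had 5.28, 5.03 and 8.13 CPM in WT, 4.3, 5.37 and 4.24 CPM in het, and 2.05, 4.31 and 2.74 CPM in homo libraries. The homo libraries lay below all WT libraries, and the het libraries overlapped with WT. It fell by 1.03 ± 0.26 on the log2 scale (FDR = 0.0129). The FDR was 0.0967 without *Cryaa* WT replicate 3, where *Col1a2* was highest, 0.174 with library size alone and 0.0574 in a model of the *Cryaa* libraries alone. Thus 1 of 8 members passed, where 9.79% of all genes passed, and 2 did with the study's filter (*Col1a2* and *Tgfbi*, against 5.64% of genes). The libraries of these 2 genes alone did not overlap between homo and WT lenses, as was so for 24.5% of all genes. The other chains of the fibrillar collagens gave *Col1a1* at -0.69 ± 0.41 (FDR = 0.329) and *Col3a1* at 0.22 ± 0.60 (FDR = 0.867).

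*Tgfbi* and *Fn1* had their highest levels of the series in *Cryaa*-R49C-homo libraries. *Tgfbi* had 0.682, 0.304 and 0.806 CPM in WT, 0.354, 0.601 and 0.698 CPM in het, and 2.09, 1.10 and 2.21 CPM in homo libraries. The 3 homo libraries were above all WT and het libraries, on 95, 35 and 58 counts against 16, 9 and 23 in WT. The log2 fold change against WT was 1.59 ± 0.61 (FDR = 0.104), and 1.70 ± 0.60 against het (FDR = 0.0844). The comparison with WT passed with the study's filter (FDR = 0.0291), in a model of the *Cryaa* libraries alone (0.0392) and with the likelihood-ratio test (0.00808), and in none of the other 11 alternatives. *Fn1* had 4.90, 3.65 and 4.24 CPM in WT, 3.79, 2.28 and 2.89 CPM in het, and 2.51, 9.05 and 9.05 CPM in homo libraries. It thus split within the homo group, and the log2 fold change of 0.68 ± 0.45 did not pass (FDR = 0.383). Without homo replicate 1 it was 1.08 with an FDR of 0.0407.

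The same split appeared in the vessel markers of the homo libraries. The 10 vessel endothelium genes summed to 37.8 CPM in homo replicate 1 and to 113.0 and 107.8 CPM in the other two, against 31.6 to 53.9 CPM in the WT and het libraries. The 7 pericyte genes summed to 30.4, 128.1 and 101.0 CPM in the 3 homo libraries and to 27.0 to 39.2 CPM in WT. Of these lists, 2 vessel genes (*Tie1* and *Cdh5*) and 2 pericyte genes (*Higd1b* and *Rgs5*) passed as higher in homo than in WT. Other markers moved too. The 10 macrophage genes summed to 24.4, 42.0 and 45.6 CPM in the homo libraries against 9.66 to 21.4 CPM in WT, and 2 passed as higher (*Aif1* and *C1qa*). Only 1 macrophage gene passed with DESeq2 size factors, and 1 when Gm42418 was left out before the scaling. Of 10 lens fibre genes tested, 6 were lower, and the 11 listed summed to 68112, 34855 and 19693 CPM in the homo libraries against 61542 to 91042 CPM in WT. Of 9 pigment and ciliary epithelium genes, 3 were lower (*Pmel*, *Mlana* and *Slc6a13*), and the 9 summed to 10.5 to 16.3 CPM in homo against 21.2 to 38.2 CPM in WT. Of 5 lens epithelium genes, *Gja1* was lower. The erythrocyte genes summed to 41.5, 149.8 and 79.5 CPM in homo against 36.8 to 57.8 CPM in WT, and none passed, although 4 did with the study's filter. The same filter gave 6 vessel, 5 pericyte and 6 macrophage genes as higher, and 5 lens fibre and 4 pigment and ciliary genes as lower. It gave 1 lens epithelium gene in each direction, where 5.64% of all genes passed. When scaled by library size alone, 5 vessel, 5 pericyte and 5 macrophage genes were higher, 3 lens fibre genes and no pigment gene were lower, and 13.5% of all genes were higher and 1.82% lower. Within the homo libraries *Col3a1* split as the vessel markers did, with 1.04, 2.89 and 2.66 CPM. *Tgfbi* did not, since its replicate 1 was at 2.09 CPM. The highest *Col3a1* level of the *Cryaa* line was 3.36 CPM, in WT replicate 3, where the vessel genes summed to 53.9 CPM. *Col1a2* was below all WT libraries in each of the 3 homo libraries. Homo replicate 1 also stood apart in Gm42418, which took 2.53% of its counts and 24.5% and 42.6% of those of the other two. The part of these cell types and of Gm42418 in the members' levels was not tested.

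**Figure D4:**
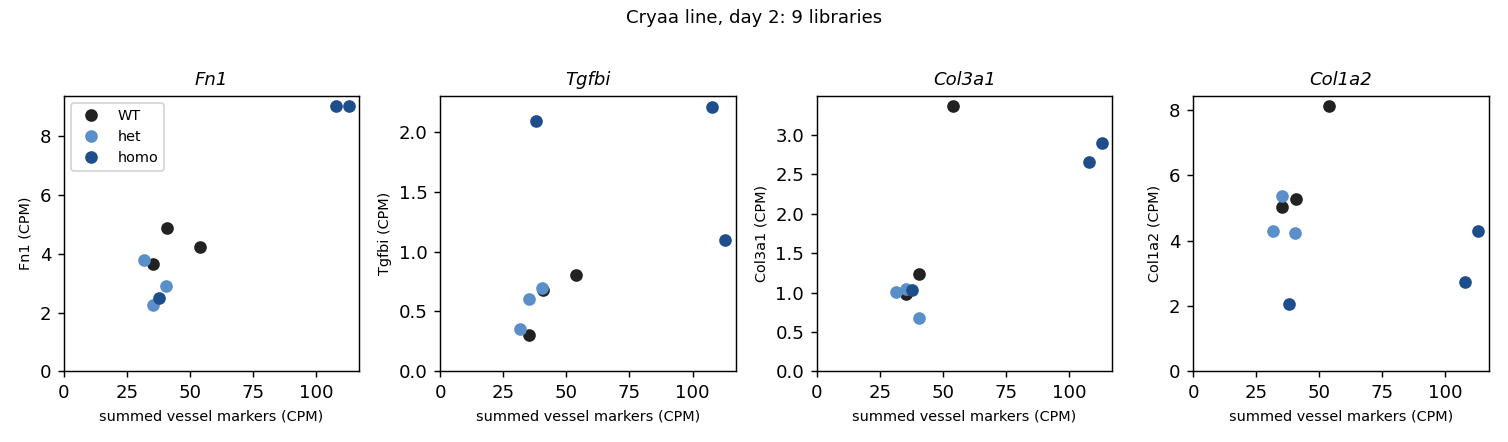
Levels of *Fn1*, *Tgfbi*, *Col3a1* and *Col1a2* (CPM after TMM scaling) against the summed CPM of 10 vessel endothelium genes in the 9 libraries of the *Cryaa* line, coloured by genotype. The homo libraries at 113.0 and 107.8 CPM of vessel markers hold the 2 highest *Fn1* levels, while *Tgfbi* is also high in the homo library at 37.8 CPM.

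Few of the other pathway genes passed in *Cryaa*-R49C-homo against WT, where 9.79% of all genes did. No ligand, receptor, SMAD, EMT, collagen processing or fibronectin receptor gene did. With library size alone 1 ligand or activator, 1 receptor or SMAD gene, 3 EMT genes, 2 collagen processing genes and 1 fibronectin receptor gene were higher, against 13.5% of all genes. That scaling also gave 3 fibril-associated matrix genes and 2 contractile genes as higher, against 1 of each with TMM. *Ctgf*, a matricellular target of TGF-β, fell by 1.53 ± 0.46 on the log2 scale (2.51 to 0.858 CPM, FDR = 0.0364), although its FDR was 0.115 with library size alone. *Col16a1* rose by 2.41 ± 0.77 (0.109 to 0.621 CPM, FDR = 0.0485), a call that was lost when Gm42418 was left out before the scaling (FDR = 0.0525). The tropomyosin gene *Tpm1* rose by 0.67 ± 0.19 (23.0 to 36.6 CPM, FDR = 0.0281). Between homo and het lenses, *Eng* was higher in homo (3.45 to 9.78 CPM, log2 difference 1.5 ± 0.38, FDR = 0.0170), as was *Itgb5* (14.8 to 26.1 CPM, 0.81 ± 0.24, FDR = 0.0375). *Eng* had 4.21, 11.4 and 13.7 CPM in the 3 homo libraries, in which replicate 1 was again the lowest. In the same comparison 3 vessel (*Cdh5*, *Tie1* and *Flt1*), 4 pericyte and 3 macrophage genes were higher and 4 lens fibre and 2 pigment and ciliary genes were lower, and their part in it was not tested. None of the 8 members tested passed between homo and het by edgeR, where 8.32% of all genes passed. At an unadjusted p under 0.05 there were 3, against 23.7% of all genes, and 3 passed with the study's filter (*Col3a1*, *Fn1* and *Tgfbi*), against 5.35% of genes. DESeq2 called *Tgfbi* (10.3% of genes), and the likelihood-ratio test called *Col1a2*, *Fn1* and *Tgfbi* (21.9% of genes).

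In het lenses the type I collagen gene *Col1a1* lay on opposite sides of WT in the 2 lines. In the *Cryaa* line it had 2.04, 1.38 and 5.61 CPM in WT and 1.01, 1.14 and 1.10 CPM in het, with all het libraries below WT. The log2 fold change was -1.48 ± 0.43 (FDR = 0.836), and -0.66 without WT replicate 3, the library at 5.61 CPM (FDR = 0.764). In the *Cryab* line it had 0.220, 0.867 and 0.816 CPM in WT and 3.79, 2.74 and 1.47 CPM in het, with all het libraries above WT. There the log2 fold change was 1.97 ± 0.50 (FDR = 0.643). The difference between the lines was 3.45 ± 0.66 (FDR = 0.205) and did not pass, as no gene did (0% of all genes). At an unadjusted p under 0.05 there were 2 of 8 members in that difference, against 2.53% of genes. Of all genes, 0.395% lay on opposite sides in this way. *Col3a1* had the same signs, with 3.61, 0.913 and 0.561 CPM in *Cryab*-R120G-het against 0.110, 0.0667 and 0.519 CPM in WT. That is 62 counts against 9 in all, and the FDR was 0.994. With the study's filter *Col1a1* and *Col3a1* passed in *Cryab*-R120G-het against WT, where 0.527% of genes passed, and in the difference between the lines, where 0.331% did. DESeq2 called *Col1a1* in that difference (0.0431% of genes), and the likelihood-ratio test called it there (0.129% of genes) and in *Cryab*-R120G-het against WT (0.33% of genes). For homo lenses the difference between the lines gave none of 8 members, where 2.91% of all genes passed, and *Col1a1* and *Col1a2* at an unadjusted p under 0.05, against 15.4% of genes.

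No member passed by edgeR in *Cryab*-R120G-het or *Cryab*-R120G-homo against WT, where 0.00717% and 0.0502% of all genes passed. At an unadjusted p under 0.05 there were *Aebp1*, *Col1a1* and *Col3a1* in each, against 3.82% of genes in het and 6.1% in homo. DESeq2 called no member in either (0.0863% and 0.137% of genes). The likelihood-ratio test called *Col1a1* in het and *Aebp1* in homo (1.84% of genes), as the study's filter did in homo (1.14% of genes). In het, 4 of 9 members did not overlap with WT (*Col1a1*, *Col1a2*, *Col3a1* and *Aebp1*), against 10.1% of genes, and in homo 2 of 9 (*Col1a1* and *Aebp1*), against 9% of genes. *Col1a1* was above all WT libraries in homo lenses too, with 1.57, 1.27 and 1.61 CPM, and a log2 fold change of 1.13 ± 0.52 (FDR = 0.790). Homo and het lenses of this line gave no member and no other gene past the threshold, with 1.97% of genes at an unadjusted p under 0.05 by edgeR, 0 genes past the threshold by DESeq2 and 2 by the likelihood-ratio test. No gene of the 8 pathway lists passed in het or homo against WT. With the study's filter 2 TGF-β-induced genes were lower in het (*Cyr61* and *Klf10*) and 1 in homo (*Cyr61*), and the libraries of each overlapped with WT. *Cyr61* had 70.6, 1.07 and 0.742 CPM in the WT libraries, so that 1 library decided its level. The 9 pigment and ciliary epithelium genes summed to 7.49 to 9.13 CPM in WT but to 22.2 to 64.2 CPM in het and 21.3 to 36.2 CPM in homo libraries, and *Slc6a13* passed in homo (FDR = 0.0353). With the study's filter 6 of these 9 were higher in het and 5 in homo. The macrophage genes summed to 1.13 to 2.31 CPM in WT, 1.96 to 4.87 CPM in het and 2.45 to 7.40 CPM in homo libraries, and none passed by edgeR after filtering. The same filter gave 2 as higher in homo. The erythrocyte genes summed to 15.6 to 145.8 CPM in WT, 134.0 to 451.2 CPM in het and 49.2 to 178.3 CPM in homo libraries, and 5 were higher in het with the study's filter but none by edgeR after filtering. The photoreceptor genes summed to 18.01 to 702.8 CPM in WT, 85.3 to 547.3 CPM in het and 177.2 to 1059 CPM in homo libraries, and 5 were higher in homo with the study's filter but none by edgeR after filtering. The part of such tissues in the collagen levels was not tested. In *Cryaa*-R49C-het lenses no member that could be tested passed by edgeR, DESeq2 or the likelihood-ratio test, where 0.00717%, 0.0144% and 0.108% of genes passed. *Col1a1* alone had an unadjusted p under 0.05, against 5.09% of genes, and it and *Tgfb2* did not overlap with WT, against 21.9% of genes. Of the 8 members, 7 had a lower point estimate than in WT, with a median log2 fold change of -0.34 against -0.01 for all genes.

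**Figure D5:**
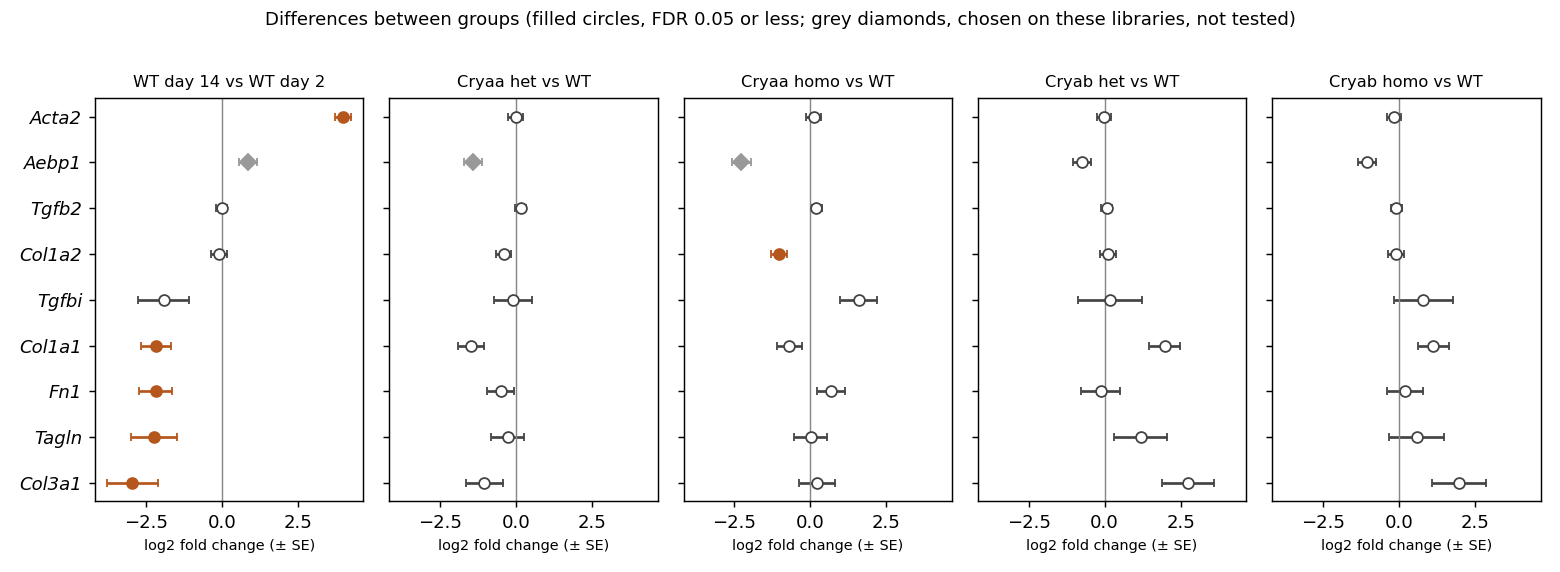
Log2 fold change (± SE) of the 9 genes between WT lenses of the 2 lines and between mutant and WT lenses of each line; filled circles passed an FDR of 0.05 and grey diamonds mark *Aebp1* in comparisons with the libraries that chose it, which were not tested. Among the comparisons of mutant with WT lenses, *Col1a2* in *Cryaa*-R49C-homo at -1.03 is the one filled circle.

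*Acta2* and *Tgfb2*, the most abundant members, had the narrowest intervals for a difference from WT, and none passed the test. For *Acta2* the log2 difference from WT was -0.01 (95% interval -0.51 to 0.50) in *Cryaa*-R49C-het, 0.12 (-0.39 to 0.62) in *Cryaa*-R49C-homo, -0.01 (-0.51 to 0.48) in *Cryab*-R120G-het and -0.16 (-0.65 to 0.34) in *Cryab*-R120G-homo. For *Tgfb2* it was 0.15 (-0.21 to 0.52), 0.20 (-0.16 to 0.56), 0.07 (-0.29 to 0.44) and -0.08 (-0.45 to 0.29) in the same order. The 3 *Cryaa*-R49C-het libraries of *Tgfb2*, at 34.2 to 38.2 CPM, all lay above the WT libraries, at 31.6 to 34.0 CPM. *Tagln* was too scarce for such limits, with 22 counts over the 9 *Cryab* libraries, and its interval in *Cryaa*-R49C-homo was -1.11 to 1.14.

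The genes whose levels moved most like each member from library to library, once the group means were removed, were taken from all 13938 tested genes over the 18 libraries. For *Aebp1* they were *Mink1* (Pearson's r = 0.950), *Coro2b* (0.931) and *Aes* (0.924). For *Acta2* they were *Txndc17* (0.959), *Clu* (0.945) and *Cr1l* (0.925). For *Fn1* they were *Epc1* (0.921), *Phf8* (0.912) and *Fam101b* (0.910), and for *Tgfb2* they were *Nol8* (0.943), *Trim30a* (0.843) and *Atf6* (0.831). For *Col1a1* they were *Prpf4* (0.906), *Apold1* (0.816) and *Pax6* (0.800), for *Col1a2* they were *Esf1* (0.846), *Eny2* (0.823) and *Bclaf1* (0.816), and for *Col3a1* they were *Atxn1* (0.865), *Reck* (0.859) and *Hmha1* (0.855). The scarce genes *Tgfbi* and *Tagln* were most like *Gfra2* (0.866) and *Ccdc18* (0.920). No member was among the 3 genes most like another. Between members, the highest values were 0.620 for *Tgfb2* with *Fn1* and 0.576 for *Col1a1* with *Col3a1*, and the lowest was -0.577 for *Col3a1* with *Acta2*. These are the extremes of many values over libraries that share depth and scaling, and they are given as a description.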

How the data were processed

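RNA-seq of pooled lenses was carried out by the authors with a Clontech poly-A kit and single reads of 50 bases. Per the labels and methods, reads were demultiplexed with CASAVA 1.8, aligned with STAR 2.0.4b to GRCm38 and counted with featureCounts 1.4.5. Whole-number counts per gene were deposited. The deposited RPKM values were used for gene length only, and deposited CPM and log2 CPM tables were not used. Repeated lines of a gene were dropped (41422 lines, 40800 genes). Groups came from sample titles, because the genotype field of the *Cryab* mutant libraries names the other line.

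Counts were tested with edgeR 4.0.16 (R 4.3.3) in 1 model of 6 groups, after filterByExpr with its minimum count of 10, TMM scaling and robust quasi-likelihood fits. The study's filter (26547 genes) left no gene-wise variance and was an alternative, beside DESeq2 1.42.0, other scalings, a likelihood-ratio test, own libraries, a replicate block and leaving out each library. Means of CPM are ± SD, fold changes ± SE. Same-numbered libraries correlated weakly in each pair (r = 0.277, 0.176 and 0.156) for *Cryab* homo and WT. No label pairs the libraries, and in *Cryaa* het and WT the values were -0.046, 0.331 and 0.481. The test was also run on simulated data, and no result given here rests on that run. Named genes were all 9 members, up to 3 per list and comparison with the largest change past the threshold, and the 3 most alike per member. The actins beside *Acta2* were added after their values were seen. The members and lists were chosen with earlier results of these data known.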

Additional observations from a re-analysis of the deposited data

Results flagged for a closer look

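*Col1a1* in het lenses stood out because all 3 *Cryaa*-R49C-het libraries lay below their WT libraries and all 3 *Cryab*-R120G-het libraries lay above theirs. The difference between the lines was 3.45 ± 0.66 on the log2 scale (FDR = 0.205 by edgeR's quasi-likelihood test), and did not pass. It was 2.63 (FDR = 0.880) without *Cryaa* WT replicate 3, which had 5.61 CPM against 2.04 and 1.38 CPM in the other WT libraries of that line.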

How the results depend on the processing

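With the study's filter, the members past the threshold numbered 2 of 8 in *Cryaa*-R49C-homo against WT (1 in the report), 3 between homo and het, 2 in *Cryab*-R120G-het, 1 in *Cryab*-R120G-homo and 2 in the het difference between the lines (0 in the report for each). The likelihood-ratio test gave 2, 3, 1, 1 and 1 in the same order, and 6 rather than 5 in the WT comparison. DESeq2 gave 1 between *Cryaa* homo and het and 1 in the het difference. With library size alone there were 0 in *Cryaa*-R49C-homo and 8 in the WT comparison, and the log2 fold change of *Aebp1* between WT lenses turned to -0.66. In a model of the *Cryaa* libraries alone there was 1 between homo and het (*Tgfbi*), and *Tgfbi* took the place of *Col1a2* in homo against WT. Leaving out each library in turn gave 0 to 2 in *Cryaa*-R49C-homo against WT (0 without WT replicate 3, and 2, with *Fn1* added, without homo replicate 1), 0 to 1 between homo and het (*Fn1* without homo replicate 1 and *Col1a2* without homo replicate 2) and 3 to 5 between WT lenses. The other comparisons stayed at 0. DESeq2 size factors, and leaving Gm42418 out of the scaling, moved no member count.

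With the replicate number as a block, 5 members passed between WT lenses, as without it, and no other member count moved. In *Cryab*-R120G-homo against WT, same-numbered libraries correlated weakly in each pair, though no label pairs them. There 18 genes in all passed with the block against 7 without. A model of those libraries alone, added after the data were seen, gave 32. Counts over all genes also moved, with the study's filter (17 against 1 in *Cryaa*-R49C-het, 140 against 1 in *Cryab*-R120G-het, 302 against 7 in *Cryab*-R120G-homo, 798 against 406 in the homo difference) and with the likelihood-ratio test (15, 46, 257 and 1454, with 2887 against 1364 in *Cryaa*-R49C-homo and 3052 against 1160 between homo and het). DESeq2 gave 12 in *Cryab*-R120G-het, 19 in *Cryab*-R120G-homo and 626 in the homo difference. Library size alone gave 11596 against 3237 between WT lenses, 2138 in *Cryaa*-R49C-homo and 255 in the homo difference. Own libraries alone gave 677 between *Cryaa* homo and het and 209 in the homo difference. The causes of these shifts were not tested. Depth limits *Tagln*, *Tgfbi* and *Col3a1* in the *Cryab* line, which had 22, 26 and 116 counts in its 9 libraries.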
